A study of Homo sapiens with 6 samples.

Results

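The genes described here are 10 transcription factors that mark the endoderm and the gut tube, CDX1, CDX2, ISX, GATA4, GATA5, GATA6, SOX17, PDX1, KLF5 and HHEX. They were chosen by gene name from the 60623 genes listed in each file, and all 10 were found. The cells were hepatocyte-like cells derived from the human embryonic stem cell line H9, at day 19. The labels call them hepatoblasts, the bipotent progenitors of the fetal liver, and give their tissue as liver. HFPO-TA, a fluorinated ether carboxylic acid whose full name is hexafluoropropylene oxide trimer acid, was given to the cells of 3 libraries, and 0.1% DMSO to those of the other 3, the controls. The label gives the HFPO-TA dose as 10 with a garbled unit, so no dose is stated here. Both groups share a single stem cell line. Since no label ties a library to its own culture, the spread behind each p-value is that between these libraries and may be technical.

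Definitive endoderm gives rise to liver, pancreas, stomach and intestine, and its regions are set apart by combinations of such factors. GATA4, GATA6, SOX17 and HHEX act early, when endoderm forms and the liver bud grows out. PDX1 marks the pancreas and duodenum, and CDX2 with CDX1 gives the posterior gut its intestinal identity. In the liver lineage HHEX and the GATA factors are the members usually looked for, while CDX2 and ISX are markers of intestinal epithelium.

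Levels are in TPM, a measure of transcripts relative to the library total that is corrected for length, so levels can be compared between genes. Sequencing depth is unknown from TPM, and counting intervals cannot be set. Of 15664 genes with at least 1 TPM in at least 3 libraries, 77 were called by limma at an adjusted p under 0.05, or 0.492%, and at an unadjusted p under 0.05 there were 1882, or 12.0%. Adjusted p-values below are from that fit, with Benjamini-Hochberg adjustment over all 15664 genes. All 8 hepatocyte markers passed the filter, and their sum was 98494 to 106079 TPM with HFPO-TA and 111137 to 123321 TPM with DMSO, with a median log2 fold change of -0.23. The part of this difference in the levels below was not tested. Of the 8, FGB, a fibrinogen chain, fell and the others were not called. In 6 of the 8 the log2 fold change was below 0. In the other 2, APOA1 and TF, it was 0.06 and 0.07, and their groups overlapped. Most of the sum was AFP, with means of 65021 TPM with HFPO-TA and 76581 TPM with DMSO. AFP, the fetal serum protein, took 6.34% to 6.71% of all TPM with HFPO-TA and 7.20% to 7.94% with DMSO (adjusted p = 0.0867). ALB, the serum albumin of mature hepatocytes, stood at 64.7 ± 9.84 TPM with HFPO-TA and 113 ± 14.3 TPM with DMSO (SD, n = 3 each; adjusted p = 0.0522). The cells were sequenced in bulk, so fewer cells of a type and less RNA per cell cannot be told apart in any value below.

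Of the 10 factors, 9 passed the filter on low values and HHEX did not. With HFPO-TA 0 of the 9 were called by limma, against 0.492% of all tested genes. An unadjusted p under 0.05 was found for 2 of the 9, ISX and GATA4, and for 12.0% of all tested genes. The median log2 fold change of the 9, HFPO-TA minus DMSO on log2(TPM + 1), was -0.06, against -0.01 over all tested genes. The largest differences were those of ISX, which stood higher with HFPO-TA, and of PDX1 and GATA4, which stood lower. In 3 of the 9, the libraries of the groups did not overlap, as in 17.9% of all tested genes. ISX was the factor above DMSO in that way, where 8.55% of all tested genes lay so, and GATA4 and SOX17 lay below, where 9.40% of all tested genes did.

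The order of the levels was led by an intestinal factor. CDX2 stood highest in both groups, with medians of 59.9 TPM with HFPO-TA and 57.7 TPM with DMSO. GATA4 came next, at medians of 34.1 TPM with HFPO-TA and 39.1 TPM with DMSO. GATA5 and GATA6 followed with ranges that overlapped each other in both groups, and KLF5 stood below them. The next 4 were ISX, CDX1, PDX1 and SOX17, whose neighbours overlapped in range with HFPO-TA and with DMSO. HHEX was lowest, and its range lay below that of SOX17 in both groups. Against the 15664 tested genes, the mean level of CDX2 over all 6 libraries lay at the percentile 87.6, that of GATA4 at 80.0 and that of SOX17 at 14.0.

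**Figure D1:**
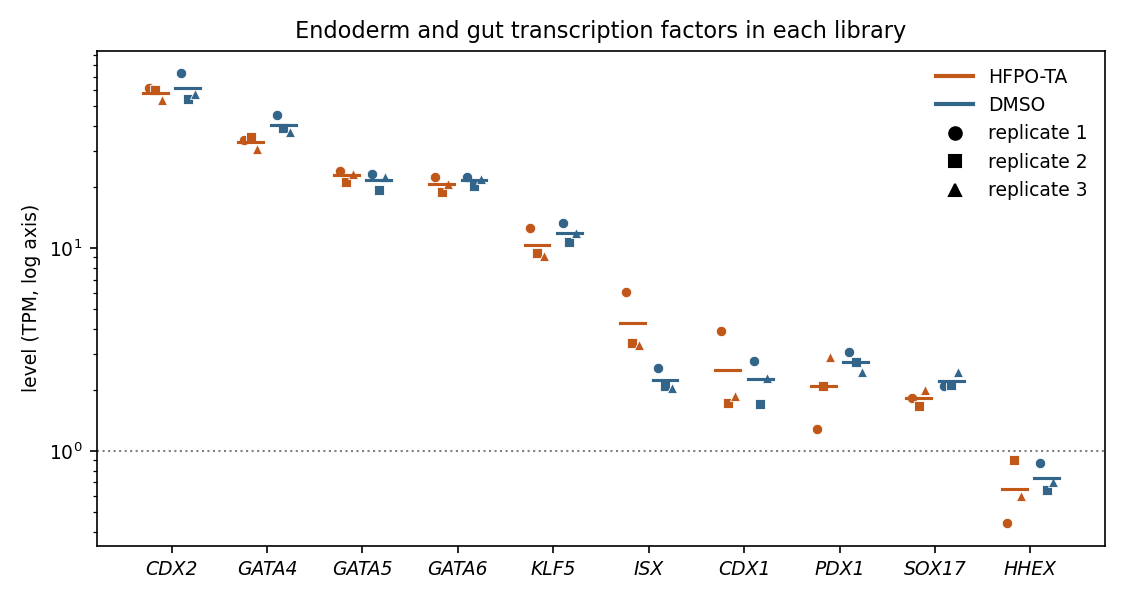
Level of each of the 10 factors in TPM on a log axis, with HFPO-TA libraries left of DMSO libraries; symbols are replicates, short bars are group means and the dotted line marks 1 TPM. CDX2 stands highest at 53.7 to 61.9 TPM with HFPO-TA and 54.2 to 72.9 TPM with DMSO, and HHEX stays under 1 TPM in every library.

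CDX2, the caudal homeobox factor that governs intestinal identity, had 61.9, 59.9 and 53.7 TPM with HFPO-TA and 72.9, 54.2 and 57.7 TPM with DMSO. The groups overlapped, and the highest library was replicate 1 in each of them. The log2 fold change was -0.06 (SE 0.12, adjusted p = 0.884). Its 95% interval ran from -0.33 to 0.20, which on the TPM + 1 scale is a fold between 0.793 and 1.15. Without DMSO replicate 1 the log2 fold change was 0.06. Its close relative CDX1, a target of WNT and retinoic acid signals, was far lower at 2.49 ± 1.22 TPM with HFPO-TA and 2.25 ± 0.531 TPM with DMSO (SD, n = 3 each). CDX2 made up 96.0% ± 1.67 of the summed TPM of the pair with HFPO-TA and 96.5% ± 0.41 with DMSO. The interval for CDX1 was wide, from -0.53 to 0.65 (log2 fold change 0.06, adjusted p = 0.952). The sign of the CDX1 difference turned with single libraries: it was -0.21 without HFPO-TA replicate 1 and -0.06 without DMSO replicate 2. In GENCODE 29 (GRCh38) CDX2 lies on the minus strand of chromosome 13 from 27962137 to 27971139 and CDX1 on the plus strand of chromosome 5 from 150166795 to 150184558. No gene annotated there overlaps either.

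ISX, the intestine-specific homeobox factor, had 6.05, 3.39 and 3.33 TPM with HFPO-TA and 2.57, 2.10 and 2.05 TPM with DMSO. Every HFPO-TA library stood above every DMSO library, and HFPO-TA replicate 1 stood far above the other 5. The ratio of the group means was 1.90. The log2 fold change was 0.66 (SE 0.21, 95% interval 0.17 to 1.16), with an unadjusted p of 0.0149 and an adjusted p of 0.26, so ISX was not called. Without HFPO-TA replicate 1 the log2 fold change was 0.43 (adjusted p = 0.239), and in replicates 2 and 3 of both groups alone, an added comparison, it was 0.50 (adjusted p = 0.196). Between libraries of the same number, the difference on log2(TPM + 1) was 0.98 for replicate 1, 0.50 for replicate 2 and 0.51 for replicate 3. ISX lies on the plus strand of chromosome 22 from 35066136 to 35087387.

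In mouse intestine, ISX represses SCARB1, a lipid and carotenoid receptor, and BCO1, which cleaves carotenoids to retinal. SCARB1 stood at 275 ± 8.76 TPM with HFPO-TA and 265 ± 21.4 TPM with DMSO (SD, n = 3 each; log2 fold change 0.06, adjusted p = 0.814). BCO1 stood at 2.12 ± 0.374 TPM with HFPO-TA and 2.64 ± 0.63 TPM with DMSO (log2 fold change -0.22, adjusted p = 0.71). The groups overlapped for both genes. Without DMSO replicate 1 the log2 fold change was 0.12 for SCARB1 and -0.08 for BCO1, and without DMSO replicate 2 that of SCARB1 was 0.003. The 95% interval was -0.10 to 0.22 for SCARB1 and -0.63 to 0.20 for BCO1. Of the 12 genes listed around ISX and CDX1 in the retinoid pathway, 11 were tested and 1 rose, RBP2, the cellular retinol-binding protein of the small intestine. Over these 11 the median log2 fold change was 0.05.

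RBP2 rose to 963, 1291 and 1451 TPM with HFPO-TA, against 277, 294 and 299 TPM with DMSO (log2 fold change 2.07, SE 0.14, adjusted p = 0.00371). The proximal promoters of ISX and RBP2 are shown because these are a factor and an enterocyte gene that both stood higher in every HFPO-TA library. They were thus picked by their values in these libraries, and ISX was not called. Binding of any factor to these promoters was not tested. The windows were taken from RefSeq (GRCh38.p14) and end at the annotated start, or before the first exon that GENCODE 29 annotates. Capitals mark GATAA, the core bound by GATA factors, and TTTAT or TTTAC, cores bound by CDX factors, on either strand.
ISX, plus strand, chr22:35065908-35066135: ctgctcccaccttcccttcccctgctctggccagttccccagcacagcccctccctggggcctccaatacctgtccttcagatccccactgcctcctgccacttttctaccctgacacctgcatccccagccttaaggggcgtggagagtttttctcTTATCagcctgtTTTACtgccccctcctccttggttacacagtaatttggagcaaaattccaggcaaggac
RBP2, minus strand, chr3:139476517-139476766: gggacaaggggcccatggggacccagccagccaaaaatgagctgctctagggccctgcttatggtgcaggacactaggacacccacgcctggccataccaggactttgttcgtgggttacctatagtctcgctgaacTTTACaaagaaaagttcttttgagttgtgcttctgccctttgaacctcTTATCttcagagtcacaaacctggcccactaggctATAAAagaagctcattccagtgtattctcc
The ISX window holds a GATAA core on the opposite strand at -93 to -89 and a TTTAC core at -81 to -77, counted from the RefSeq start. RBP2 has a TTTAC core at -113 to -109, a GATAA core on the opposite strand at -65 to -61 and a TTTAT core on the opposite strand at -30 to -26, the last within the letters TATAAA. Such short runs are common: of 35116 promoter windows of 250 bases, 20.4% hold GATAA, 32.7% TTTAT and 25.2% TTTAC. Windows were given for 5 of the 10 factors. In the windows of CDX2 and HHEX a TTTAT core and a GATAA core overlap, at -120 to -115 and at -30 to -25. The CDX2 window lies wholly in an exon that GENCODE 29 annotates for CDX2.

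Of the 3 GATA factors of the endoderm and heart, GATA4 stood above GATA5 and GATA6 in both groups, and the ranges of GATA5 and GATA6 overlapped. GATA4 had 34.1, 35.2 and 31.0 TPM with HFPO-TA and 45.5, 39.1 and 37.3 TPM with DMSO. All HFPO-TA libraries lay below all DMSO libraries. The log2 fold change was -0.27 (SE 0.10, 95% interval -0.50 to -0.05, unadjusted p = 0.024), and GATA4 was not called (adjusted p = 0.314). GATA5 stood at 22.8 ± 1.54 TPM with HFPO-TA and 21.8 ± 2.06 TPM with DMSO, and GATA6 at 20.7 ± 1.78 TPM with HFPO-TA and 21.6 ± 1.11 TPM with DMSO (SD, n = 3 each). Neither was called (adjusted p = 0.856 for GATA5 and 0.865 for GATA6). Their 95% intervals ran from -0.17 to 0.30 for GATA5 and from -0.28 to 0.16 for GATA6. The sign of the GATA5 difference turned without DMSO replicate 2, where it was -0.01.

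As shares of their summed TPM within each library, GATA4 took 43.5% ± 2.97 with HFPO-TA and 48.4% ± 2.32 with DMSO, and its ranges overlapped (exact permutation test, 2-sided, p = 0.2). GATA5 took 29.8%, 28.0% and 31.1% with HFPO-TA and 25.5%, 24.6% and 27.6% with DMSO. The GATA5 shares did not overlap, and the exact permutation p of 0.1 is the smallest that 3 against 3 libraries can give. In TPM the GATA5 groups overlapped, while those of GATA4 did not. The summed TPM of the 3 factors was 76.9 ± 3.14 with HFPO-TA and 84.0 ± 6.54 with DMSO, and its ranges overlapped. GATA6 took 26.8% ± 1.53 with HFPO-TA and 25.7% ± 1.01 with DMSO (exact permutation p = 0.3). These shares sum to a whole, so they are not independent of each other.

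**Figure D2:**
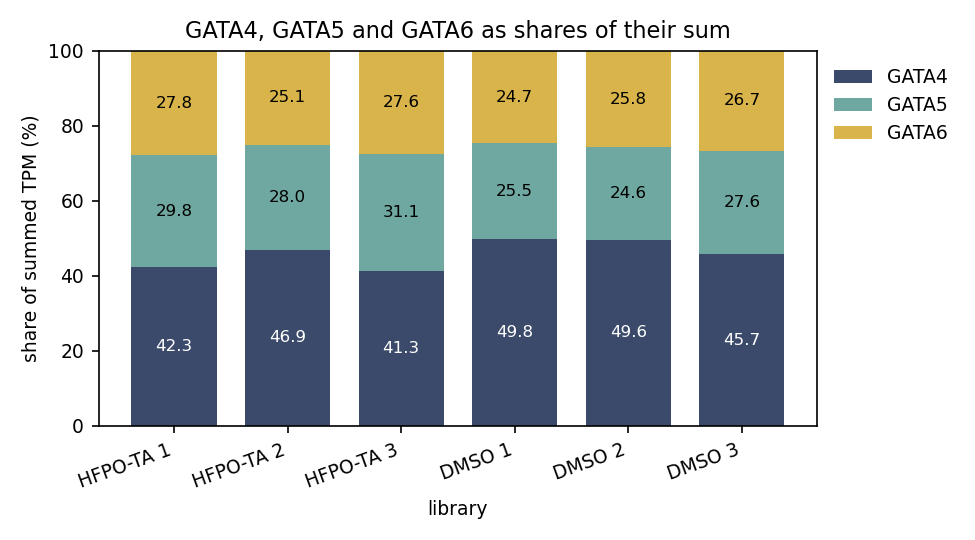
Stacked bars of GATA4, GATA5 and GATA6 as percentages of their summed TPM in each library, HFPO-TA at left and DMSO at right. GATA5 takes 28.0% to 31.1% in the HFPO-TA libraries and 24.6% to 27.6% in the DMSO libraries, while the GATA4 shares of the groups overlap. In TPM, not drawn here, the GATA5 groups overlap and the GATA4 groups do not.

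GATA6 lies on the plus strand of chromosome 18 from 22169443 to 22202528 and is the factor among the 10 whose span overlaps other annotated genes. GATA6-AS1, which runs from the opposite strand over 436 bases of the span, stood at 14.6 ± 2.61 TPM with HFPO-TA and 16.0 ± 1.34 TPM with DMSO (adjusted p = 0.756). Whether the library kit kept strand is not given in the sources used here, so reads of GATA6 and GATA6-AS1 may be shared and the value of GATA6 is uncertain to that extent. GATA4 lies on the plus strand of chromosome 8 from 11676959 to 11760002, and GATA5 on the minus strand of chromosome 20 from 62463497 to 62475970. Of other family members, GATA3, known from trophoblast, ectoderm and lymphocytes, stood at 8.49 ± 1.96 TPM with HFPO-TA and 8.82 ± 3.20 TPM with DMSO. GATA1, the erythroid factor, was listed at 0 in all 6 libraries. ZFPM1, a cofactor that binds GATA proteins, had 2.14, 2.14 and 1.71 TPM with HFPO-TA and 2.85, 1.84 and 2.27 TPM with DMSO (adjusted p = 0.817), and its relative ZFPM2 lay below the filter.

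PDX1, the pancreatic and duodenal homeobox factor, had 1.28, 2.10 and 2.91 TPM with HFPO-TA and 3.07, 2.74 and 2.46 TPM with DMSO. The groups overlapped, and HFPO-TA replicate 1 was the lowest of the 6. The log2 fold change was -0.31 (SE 0.21, 95% interval -0.81 to 0.19, adjusted p = 0.642), -0.11 without HFPO-TA replicate 1 and -0.50 without HFPO-TA replicate 3. PDX1 lies on the plus strand of chromosome 13 from 27920020 to 27926231. It shares a homeobox cluster, the ParaHox cluster, with CDX2 and GSX1, and 35905 bases part the spans of PDX1 and CDX2. GSX1, a factor of the developing brain, was listed at 0 in all 6 libraries. Between the spans of PDX1 and CDX2 lies LINC00543, which had 0.35, 3.7 and 0.32 TPM with HFPO-TA and 0.48, 0.61 and 12.2 TPM with DMSO, so that 1 library stood high in each group.

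SOX17, which is needed for definitive endoderm and is also made by endothelium, had 1.82, 1.67 and 2.0 TPM with HFPO-TA and 2.10, 2.11 and 2.45 TPM with DMSO. The groups did not overlap, but the gap between the highest HFPO-TA and the lowest DMSO library was narrow, and SOX17 was not called (log2 fold change -0.19, SE 0.15, adjusted p = 0.693). KLF5, a factor of proliferating gut epithelium, stood at 10.4 ± 1.91 TPM with HFPO-TA and 11.9 ± 1.26 TPM with DMSO (SD, n = 3 each; log2 fold change -0.19, SE 0.14, adjusted p = 0.68). The KLF5 groups overlapped. Without HFPO-TA replicate 1 they did not, and the log2 fold change was -0.32 (adjusted p = 0.252). SOX17 lies on the plus strand of chromosome 8 from 54457935 to 54460888 and KLF5 on the plus strand of chromosome 13 from 73054976 to 73077542. KLF6, a relative of KLF5 with broad expression, stood above it, at 49.8 ± 3.35 TPM with HFPO-TA and 47.9 ± 1.55 TPM with DMSO.

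HHEX, a homeobox factor needed for the liver bud in mouse, had 0.44, 0.90 and 0.60 TPM with HFPO-TA and 0.87, 0.64 and 0.70 TPM with DMSO. It reached 1 TPM in 0 libraries, so it did not enter the fit, and the groups overlapped. The means of log2(TPM + 1) differed by -0.084, HFPO-TA minus DMSO, with an exact permutation p of 0.5 (2-sided; 0.1 is the smallest possible). HHEX lies on the plus strand of chromosome 10 from 92689951 to 92695646. Of the 10 factors it had the lowest mean in both groups.

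**Figure D3:**
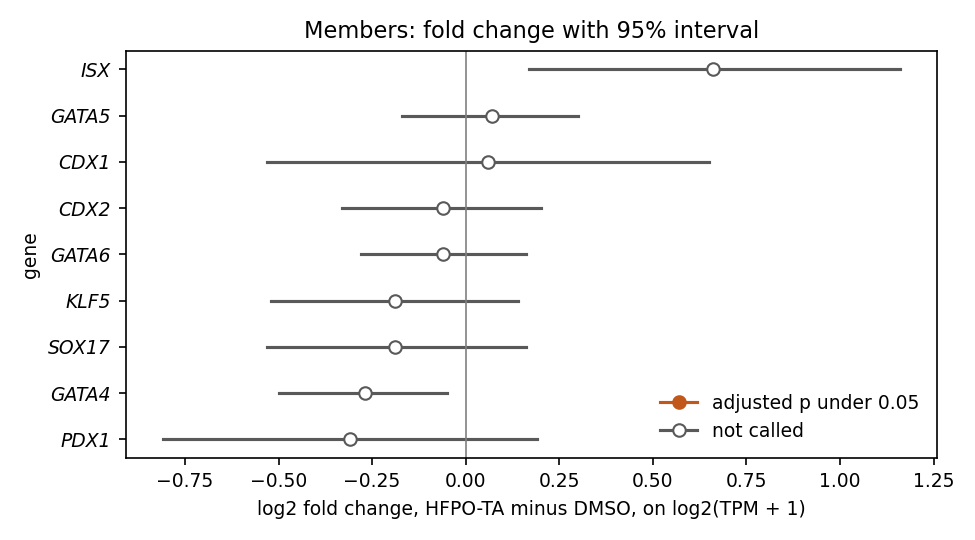
Log2 fold change of the 9 tested factors, HFPO-TA minus DMSO on log2(TPM + 1), with 95% intervals from limma; open points are not called. The interval of ISX, 0.17 to 1.16, and that of GATA4, -0.50 to -0.05, lie on 1 side of 0 before adjustment, and the other 7 span 0.

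Replicate 1 stood apart in several factors. In 6 of the 9 tested factors, CDX1, CDX2, ISX, GATA5, GATA6 and KLF5, replicate 1 was the highest library of both groups, as it was for 30.0% of all tested genes. The summed level of 9 stromal markers was 2280, 1126 and 1120 TPM with HFPO-TA and 2000, 1368 and 1562 TPM with DMSO, again highest in replicate 1. All 9 passed the filter, 0 were called and all had a log2 fold change below 0, with a median of -0.22. The part of stromal cells in the levels of these factors was not tested. A letter in the column headers, which the labels do not explain, also parts replicate 1 from replicates 2 and 3. With a term for it 0 of the 9 factors were called, and the adjusted p of ISX was 0.0996.

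**Figure D4:**
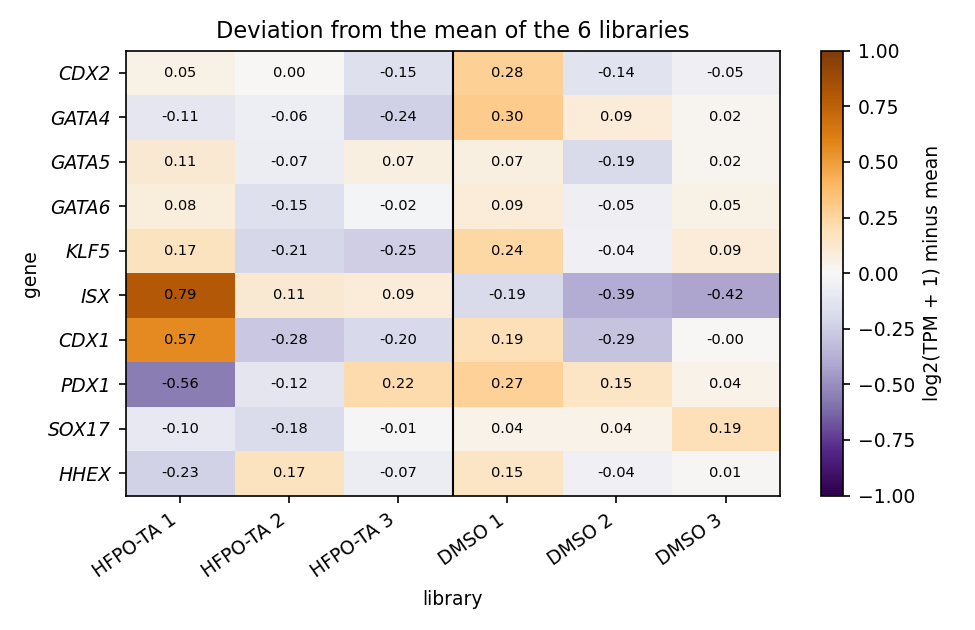
Deviation of each of the 10 factors from its mean over the 6 libraries, on log2(TPM + 1), by library, with HFPO-TA left of the line and DMSO right of it. HFPO-TA replicate 1 holds the largest deviations, 0.79 for ISX, 0.57 for CDX1 and -0.56 for PDX1.

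The profiles over the 6 libraries were compared with those of 71 other tested genes, those of the lists and the other factors, by the root mean square difference of centred log2(TPM + 1) values, as a description. CDX2 was nearest to ZFPM1 (0.055) and STRA6 (0.11). GATA6 was nearest to CTNNB1 (0.028) and SOX9 (0.046), GATA5 to SCARB1 (0.053) and ALPI (0.069), and GATA4 to BCO1 (0.081) and RXRA (0.096). KLF5 was nearest to RARA (0.077) and TLE2 (0.094). ISX and PDX1 had no close neighbour: the nearest were RARB (0.265) and SOX18 (0.27) for ISX, and HOXB6 (0.193) and FOXA3 (0.207) for PDX1. A gene that hardly varies lies near any other such gene by this measure, and all profiles share the same 6 libraries.

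Genes of intestinal epithelium, many of them under CDX2 and GATA factors in the gut, were present beside these factors. Of the 20 listed, 15 were tested, 2 rose, 1 fell and 12 were not called, with a median log2 fold change of -0.05. That median lies between shifts in both directions, with 7 genes above 0 and 8 below. In 5 of the 15 all HFPO-TA libraries stood above all DMSO libraries, where 8.55% of all tested genes did. In 6 they stood below, where 9.40% of all tested genes did. RBP2 and LCT, the lactase of the brush border, rose, where 0.185% of all tested genes were called higher. LCT stood at 305 ± 9.83 TPM with HFPO-TA and 159 ± 11.0 TPM with DMSO (SD, n = 3 each; log2 fold change 0.94, SE 0.07, adjusted p = 0.00239). MEP1A, a brush border protease, fell, where 0.306% of all tested genes were called lower. It stood at 49.7 ± 3.03 TPM with HFPO-TA and 74.7 ± 6.44 TPM with DMSO (log2 fold change -0.58, SE 0.09, adjusted p = 0.0418). That call was lost without each of DMSO replicates 1, 2 and 3 and HFPO-TA replicates 2 and 3 (adjusted p up to 0.227). CDH17, a cadherin of gut epithelium, stood at 50.0 ± 3.08 TPM with HFPO-TA and 64.1 ± 7.96 TPM with DMSO (adjusted p = 0.23). Annotated antisense genes overlap RBP2 and LCT, at 8.39 and 1.26 TPM with HFPO-TA and 8.02 and 0.937 TPM with DMSO. Among genes below the filter, OLFM4, a marker of intestinal stem cells, stayed at or under 0.06 TPM in every library, and KRT20, a keratin of mature gut epithelium, stood at 0.78 ± 0.20 TPM with HFPO-TA and 0.76 ± 0.217 TPM with DMSO.

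**Figure D5:**
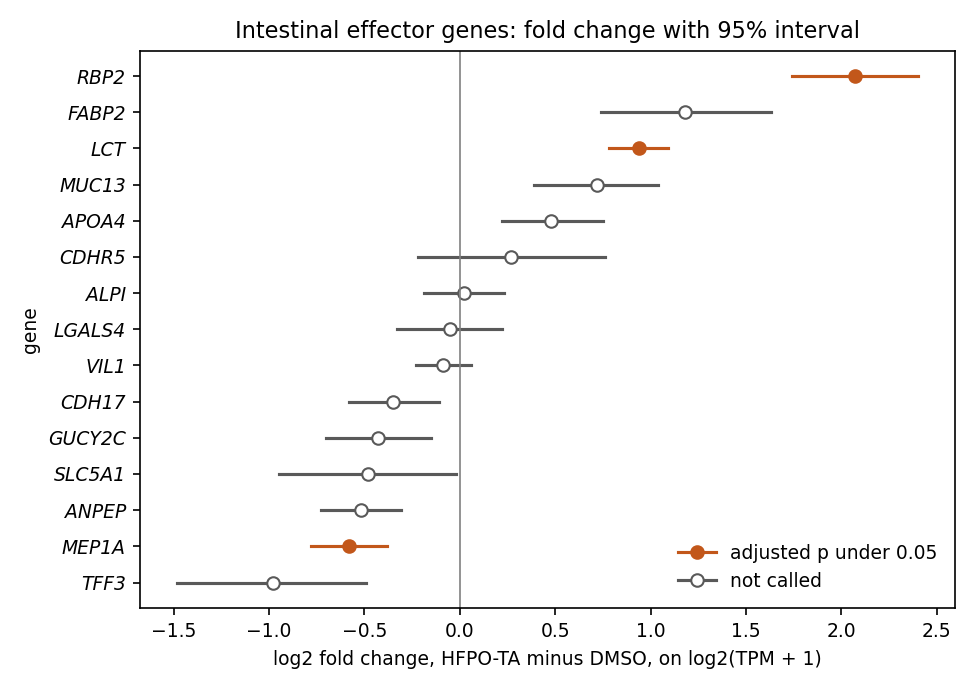
Log2 fold change of the 15 tested intestinal effector genes, HFPO-TA minus DMSO on log2(TPM + 1), with 95% intervals from limma; filled points are called. RBP2 and LCT lie above 0 and MEP1A below, and the other 12 are not called.

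Other endodermal and hepatic transcription factors were not called. Of 15 listed, 12 were tested and 0 were called, with 8 below 0 and a median log2 fold change of -0.13. In 5 of the 12 all HFPO-TA libraries lay below all DMSO libraries, where 9.40% of all tested genes did. In 1 they lay above, where 8.55% of all tested genes did. HNF4A, which maintains both hepatocytes and enterocytes, stood at 38.4 ± 1.21 TPM with HFPO-TA and 49.3 ± 3.70 TPM with DMSO. Its groups did not overlap (limma, unadjusted p = 0.00227, adjusted p = 0.119). The value of HNF4A is uncertain because an antisense gene, HNF4A-AS1, overlaps its span (adjusted p = 0.116). FOXA2, a pioneer factor of the endoderm, stood at 9.62 ± 3.07 TPM with HFPO-TA and 8.03 ± 0.635 TPM with DMSO (adjusted p = 0.775), and its log2 fold change of 0.20 was -0.01 without HFPO-TA replicate 3. In both groups the mean level of CDX2 was above those of HNF4A and FOXA2 and below that of CEBPA, another factor of this list. With DMSO the ranges of CDX2 and CEBPA overlapped, at 54.2 to 72.9 TPM and 65.9 to 68.2 TPM. CEBPA stood at 79.0 ± 9.83 TPM with HFPO-TA and 67.4 ± 1.30 TPM with DMSO (adjusted p = 0.4).

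Regulators around the factors were not called either. Of 12 listed partners and corepressors 11 were tested and 0 called, with a median of -0.07, and the smallest p was that of TLE3, a corepressor of the Groucho family, at 10.9 ± 1.88 TPM with HFPO-TA and 15.8 ± 1.58 TPM with DMSO (adjusted p = 0.202). Of 14 HOX genes, which CDX factors regulate along the body axis, 3 were tested and 0 called. Those 3 were HOXB5, HOXB6 and HOXB7, and the smallest p was that of HOXB6, at 6.09 ± 1.03 TPM with HFPO-TA and 7.84 ± 0.779 TPM with DMSO (adjusted p = 0.429). HOXB3 and HOXB-AS3 overlap HOXB6, so its value is uncertain. Of the 14 HOX genes 10 stayed under 1 TPM in every library. At 0 in all 6 libraries were 5 of them, HOXA5, HOXA7, HOXA10, HOXC10 and HOXD13. Of 12 family relatives 9 were tested and 0 called, and SOX18, an endothelial relative of SOX17, had the smallest p (1.42 ± 0.339 TPM with HFPO-TA and 0.763 ± 0.266 TPM with DMSO, adjusted p = 0.426). Of 12 genes of mesendoderm and definitive endoderm 9 stayed under 1 TPM in every library, TBXT at 0 throughout. The other 3 were not called, and CXCR4, a chemokine receptor on definitive endoderm, stood at 6.26 ± 1.75 TPM with HFPO-TA and 8.26 ± 1.61 TPM with DMSO (adjusted p = 0.562). Its log2 fold change of -0.37 was -0.15 without HFPO-TA replicate 1.

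Markers of other tissues that use the same factors differed in level. Of 12 pancreatic markers 11 stayed under 1 TPM in every library and 7 were at 0 throughout, among them INS and NKX6-1. Their summed level was 2.51 to 6.33 TPM with HFPO-TA and 3.94 to 6.26 TPM with DMSO, most of it SST, the hormone somatostatin, which is also made in gut. Of 9 cardiac mesoderm markers 6 passed the filter and 0 were called. Among the other 3, the defining factor NKX2-5 reached at most 0.20 TPM and the heart myosin MYH6 at most 0.77 TPM. TNNT2, cardiac troponin T, stood at 9.42 ± 0.47 TPM with HFPO-TA and 11.6 ± 1.89 TPM with DMSO, HAND2, a factor of the heart and limb, at 7.86 ± 2.34 TPM with HFPO-TA and 8.17 ± 1.41 TPM with DMSO, and MEF2C, a muscle factor, at 3.48 ± 0.834 TPM with HFPO-TA and 2.96 ± 0.633 TPM with DMSO. HAND1, also made by extraembryonic mesoderm, stood at 128 ± 15.5 TPM with HFPO-TA and 138 ± 5.45 TPM with DMSO. The summed level of the cardiac list was 139 to 160 TPM with HFPO-TA and 156 to 170 TPM with DMSO. Of 7 endothelial markers 6 passed the filter and 0 were called, with sums of 44.4 to 62.9 TPM with HFPO-TA and 49.7 to 58.6 TPM with DMSO. In the list of stomach, lung and thyroid markers 6 of 9 stayed under 1 TPM, with SOX2 at most 0.74 TPM and NKX2-1 at 0, and the sum was 27.2 to 31.6 TPM with HFPO-TA and 30.1 to 52.5 TPM with DMSO. Most of that sum came from the trefoil peptides of the stomach. TFF2 stood at 22.4 ± 2.06 TPM with HFPO-TA and 25.6 ± 6.95 TPM with DMSO. TFF1 had 3.91, 5.7 and 1.94 TPM with HFPO-TA and 9.51, 13.2 and 19.6 TPM with DMSO, with no overlap, and was not called (log2 fold change -1.66, SE 0.35, adjusted p = 0.116). Pluripotency markers summed to 53.1 to 57.9 TPM with HFPO-TA and 50.9 to 54.6 TPM with DMSO. Most of that came from TDGF1 and DPPA4, while POU5F1 reached at most 1.75 TPM and NANOG at most 0.14 TPM. Neural markers summed to 31.7 to 52.1 TPM with HFPO-TA and 41.5 to 47.3 TPM with DMSO. STMN2 and TUBB3 made up most of the neural sum, and 4 of the 6 neural markers stayed under 1 TPM in every library. The part of these cell types in the levels of the 10 factors was not tested.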

How the data were processed

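Total RNA of 6 libraries was sequenced. The deposited files give 1 value per gene under a header that says FPKM, but each of the authors' columns totals 995690 to 996186, and the values were therefore taken as TPM. Per the submitters' processing notes, HISAT, Bowtie2, RSEM and GRCh38.p13 were used. Their versions and roles, the annotation, the strand setting and the depth were not given.

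Values were transformed to log2(TPM + 1), genes with at least 1 TPM in at least 3 libraries were kept, and limma 3.58.1 (R 4.3.3) was fitted to all 6 libraries with treatment as the only term and a trended, robust variance. Calls are 2-sided at a Benjamini-Hochberg adjusted p under 0.05. The log scale understates changes of low genes. The fit was tested on simulated data, with changes planted only above a set mean level and with no effect shared by replicates. That test does not cover changes in low genes such as CDX1, PDX1 and SOX17. Genes below the filter, and shares, were compared by exact permutation (scipy 1.17.1). Positions come from GENCODE 29, where 58516 of the 60623 identifiers were found. Figures were drawn with matplotlib 3.10.9.

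Members and lists were chosen with earlier results of these data known. All members are given by value. Of each pathway list, called genes (at most 3) or else the tested gene with the smallest p are named, with HNF4A, FOXA2, RBP2, CDH17, SCARB1, BCO1, AFP and ALB by name; overlapping genes are named as a limit. Some genes that this rule names are not reported here. Other relatives, regulators and markers were named after their values were seen. Alternatives covered pseudocount, filter, variance, scaling, replicate terms and each library left out.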

Additional observations from a re-analysis of the deposited data

How the results depend on the processing

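In 18 other settings 0 of the factors tested were called; CDX1, ISX, SOX17 and PDX1 were tested in 17 of them, not at a minimum of 5 TPM, and HHEX in 2, those with no filter and a minimum of 0.1 TPM. The adjusted p of ISX ran from 0.0996 to 0.606 and that of GATA4 from 0.171 to 0.669, and neither changed sign. Signs turned for CDX1 (-0.207 to 0.217 with 1 library left out, -0.096 in replicates 2 and 3 alone), CDX2 (-0.149 to 0.061, and 0.019 in replicates 2 and 3 alone), GATA5 (-0.008 to 0.121) and FOXA2 (-0.013 to 0.41), none of them called. With 1 library left out, 6 to 291 genes were called over the table and 2 to 7 genes of the pathway lists. The table gave 10 called genes without a filter, 29 with a minimum of 0.1 TPM, 130 with a minimum of 5 TPM, 11 without a variance trend, 29 with median-of-ratios scaling, 207 with a term for replicate 1 and 222 in replicates 2 and 3 of both groups alone, which was added after the data were seen, against 77. Genes of the pathway lists called numbered 5 with the minimum of 5 TPM and 6 with the term for replicate 1, against 3. RBP2 and LCT were called in all 18 settings and MEP1A in 7. The cause of these shifts was not tested. Labels share replicate numbers but state no block. Deviations of same-numbered libraries correlated at 0.184, 0.123 and 0.028, and those of libraries with unlike numbers at -0.158 to 0.068. These values do not settle whether the libraries were paired, and the main fit took no pairs. With the replicate number as a block 30 genes were called, 0 of the 10 factors, and MEP1A was not (adjusted p = 0.0788). The depth behind HHEX and the other factors near 1 TPM is unknown.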
